A study of Rattus norvegicus with 4 samples.

Results

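The immediate early and clock genes of the rat retina were examined at 3 ages: Myc, Atf3, Dusp1 and Zfp36, which cells switch on when stimulated, and Per1, Per2 and Clock of the circadian clock. They were found as the probes listed with one of these 7 gene symbols, which gave 9 of the 12750 probes listed with 1 gene and 7 of 9653 genes. Myc, Atf3, Dusp1, Per2 and Clock had 1 probe each, and Zfp36 and Per1 had 2. The 7 genes were selected on the 11-week and 20-week ratios of these same arrays, so their values are given as a description, with no test.

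Immediate early genes are transcribed within minutes of a stimulus such as light, synaptic activity or stress, without new protein synthesis, and many of their messages are short-lived. In the circadian clock, CLOCK and its partner BMAL1 activate Per and Cry genes through E-box elements, and the PER and CRY proteins then repress that activation. The retina holds a clock of its own. The sets meet at the Per genes, since Per1 and, in some tissues, Per2 are also induced through cAMP response elements in the manner of immediate early genes.

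Whole retinas came from albino Lewis rats raised from birth in a diurnal environment, at 11 weeks, 20 weeks and, as the age they were set against, 5 weeks. RNA came from pooled retinas, and each two-colour array carried an older pool in one dye, Cy5 or Cy3, and a 5-week pool in the other. Each older age had 2 arrays, 1 per dye orientation, and all 4 arrays share the 5-week age. The sources used here do not give the number of animals in a pool, the hour of dissection or whether a dye-swapped pair used separate RNA. If both arrays held the same extracts, there is no replicate check, and in any case p-values reflect the spread among arrays, which may be technical. In the model with a dye effect, that spread is the mismatch between the dye differences of the 11-week and 20-week pairs. It does not measure how well the 2 arrays of an age agree.

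Each value is a log2 ratio, older over 5-week retina, relative to the median named probe of its array. Cy5 over Cy3 was taken as the likely direction, because each title names the Cy5 age first, and if it ran the other way all signs would be exchanged. Across 9653 genes, the 11-week arrays of opposite dye correlated at -0.30 once turned to the older age, and the 20-week arrays at 0.17 across 9652 genes, whereas arrays of the same dye correlated at 0.68 and 0.59. Values of both arrays of a pair are given for this reason. Before centring, the median over genes was 0.06 at 11 weeks and 0.29 at 20 weeks. Spot intensities were not used here, so nothing is said of how strongly a probe was expressed, and retinal identity could be followed only through ratios. Of 14 rod genes, 9 passed as lower at 11 weeks and 8 at 20 weeks. These were 64.3% and 57.1%, against 6.34% and 13.9% of all genes. Fewer cells of a type and less RNA per cell cannot be told apart in such whole-tissue RNA.

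Promoter windows of the members are shown to give the sequence before their starts, with matches to response elements of both gene groups. RefSeq sequences of the GRCr8 assembly, from 250 bases before to 50 bases after the annotated start, were matched for 5 of the 7 genes. They were searched on both strands for 6 elements: the cAMP response element TGACGTCA, the AP-1 site TGANTCA, the E-box CACGTG, the D-box TTATGTAA, the EGR1 site GCGTGGGCG and the CArG box, which serum response factor binds. Among 33469 rat promoter windows of this length, 1.83% held the cAMP response element, 7.33% the AP-1 site, 6.42% the E-box, 0.893% the D-box, 0.544% the EGR1 site and 1.64% the CArG box. The 3 windows with a match are printed, with the matches in capitals.
Dusp1: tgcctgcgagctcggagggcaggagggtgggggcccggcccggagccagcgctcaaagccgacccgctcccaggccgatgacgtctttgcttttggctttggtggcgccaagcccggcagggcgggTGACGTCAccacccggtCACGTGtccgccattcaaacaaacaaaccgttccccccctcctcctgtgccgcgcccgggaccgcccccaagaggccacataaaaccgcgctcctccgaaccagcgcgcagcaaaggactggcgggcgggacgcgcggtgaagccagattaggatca
Zfp36: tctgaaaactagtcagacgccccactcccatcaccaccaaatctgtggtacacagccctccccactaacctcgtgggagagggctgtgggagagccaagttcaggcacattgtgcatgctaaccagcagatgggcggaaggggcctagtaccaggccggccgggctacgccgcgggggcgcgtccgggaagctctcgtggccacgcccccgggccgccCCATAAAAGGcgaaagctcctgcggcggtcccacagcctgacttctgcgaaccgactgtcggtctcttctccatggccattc
Per2: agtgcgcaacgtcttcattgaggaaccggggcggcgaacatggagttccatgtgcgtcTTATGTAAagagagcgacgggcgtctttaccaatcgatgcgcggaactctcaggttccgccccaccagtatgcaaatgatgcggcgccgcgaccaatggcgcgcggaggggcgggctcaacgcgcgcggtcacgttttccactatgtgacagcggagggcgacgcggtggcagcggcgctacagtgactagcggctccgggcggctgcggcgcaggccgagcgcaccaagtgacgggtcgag
The Dusp1 window (chr10:17184603-17184902, plus strand) held 1 cAMP response element, which begins 124 bases before the start, and 1 E-box, which begins 107 bases before it. The Zfp36 window (chr1:92799059-92799358, minus strand) held 1 CArG box, 32 bases before the start. In the Per2 window (chr9:99496944-99497243, minus strand) there was 1 D-box, the element bound by DBP and related factors, 192 bases before the start. None of the 6 elements was found in the Per1 window or in either of the 2 Clock windows, and the Per2 window held no CACGTG. This says only that the searched letters are not in those windows, since other forms of an element were not searched. Myc and Atf3 are named only.

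Among the stimulus-induced genes, Myc, a transcription factor of growth and the cell cycle, differed most between the ages. At 11 weeks it was at 0.02 on the array with the older retina in Cy5 and -0.38 on that with it in Cy3. At 20 weeks it was at 1.29 and 0.57 on the corresponding arrays. The 11-week arrays thus lay on or below the median gene and both 20-week arrays lay well above it. The 20-week mean was 0.93 ± 0.51 (SD, n = 2), a 1.91-fold higher ratio, and the 11-week mean was -0.18 ± 0.28 (SD, n = 2). Myc ranked 20 from the highest of all genes at 20 weeks, but its arrays differed widely: the Cy5 array stood at the 99.9th percentile of genes and the Cy3 array at the 97.5th.

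Atf3 encodes a stress-inducible factor of the ATF/CREB family that is a marker of injured neurons, ganglion cells included. It was at 0.02 and 0.01 on the 11-week arrays with the older retina in Cy5 and Cy3, and at 0.65 and 0.55 on the 20-week arrays. These arrays agreed more closely than those of any other member at 11 weeks, and the ages did not overlap. Its mean was 0.01 ± 0.0049 at 11 weeks and 0.60 ± 0.07 at 20 weeks (SD, n = 2 each), and at 20 weeks its ratio was 1.52-fold.

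Dusp1, a phosphatase that inactivates MAP kinases, was already higher at 11 weeks. Its values were 0.20 and 0.56 on the 11-week arrays with the older retina in Cy5 and Cy3, and 0.39 and 0.46 on the 20-week arrays. All 4 arrays lay above the median gene, and the ages overlapped. The means were 0.38 ± 0.25 at 11 weeks, the rank 54 from the highest of all genes, and 0.43 ± 0.05 at 20 weeks (SD, n = 2 each), a 1.35-fold higher ratio than at 5 weeks. Corrected by the dye effect of the 11-week pair, the 20-week Cy5 array alone gave 0.57 and the Cy3 array alone 0.29. The SD of 0.05 does not show that spread.

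Zfp36 encodes tristetraprolin, which binds AU-rich elements in messages of immediate early and cytokine genes and promotes their decay. Its 2 probes, listed with the same transcript, gave different accounts. Probe 9597 was at 0.46 and 0.52 on the 11-week arrays with the older retina in Cy5 and Cy3, and at 0.82 and 0.89 on the 20-week arrays. Probe 1630 was at -0.36 and 0.22 on the 11-week arrays and at -0.20 and 0.05 on the 20-week arrays. All 4 arrays were high by probe 9597, with a mean of 0.85 ± 0.05 at 20 weeks (SD, n = 2), a 1.81-fold higher ratio, while by probe 1630 each pair of arrays lay on both sides of the median gene. The difference between the probes' means was 0.56 at 11 weeks and 0.93 at 20 weeks. Of 1683 genes with 2 probes, 13 differed by more at 11 weeks and 11 at 20 weeks, against a median difference of 0.12 and 0.17. Averaged over its probes, Zfp36 was at 0.21 ± 0.22 and 0.39 ± 0.11 (SD, n = 2 each) at 11 and 20 weeks. Which probe follows the message could not be told from the ratios.

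**Figure D1:**
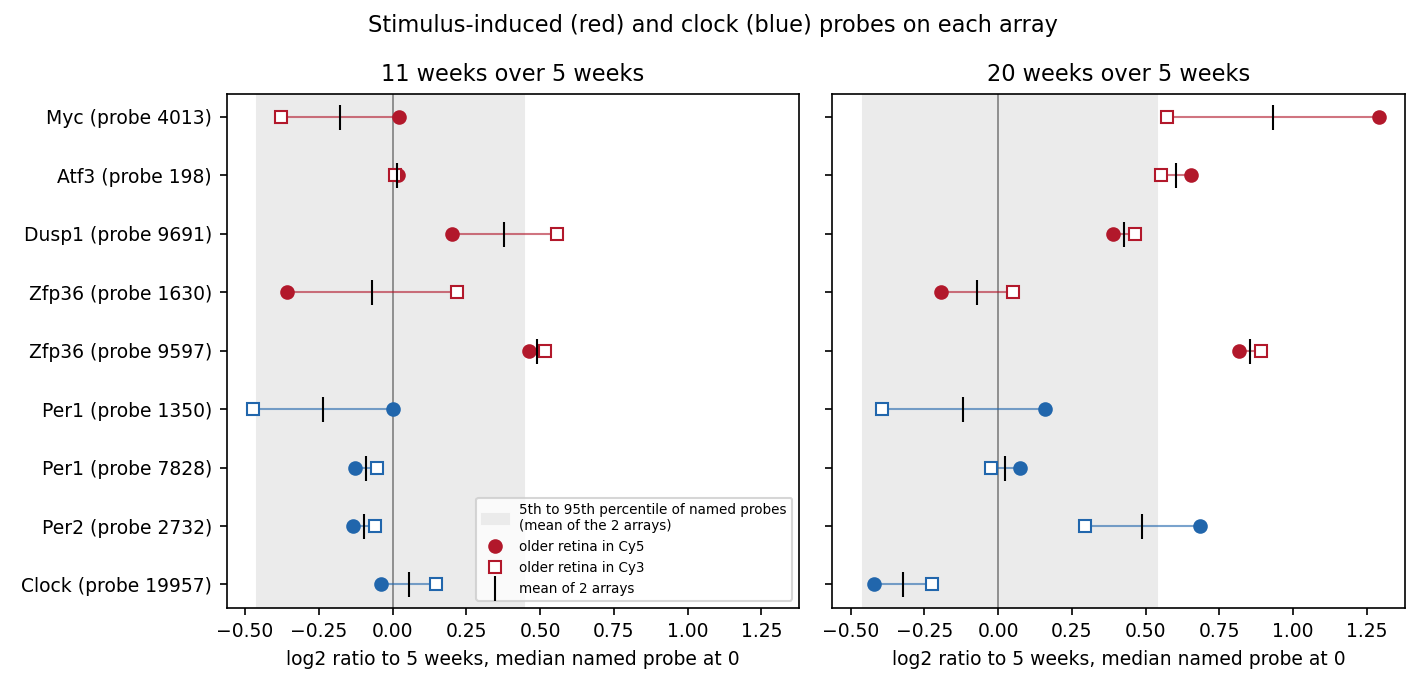
Log2 ratio of the older over the 5-week retina (horizontal axis) for each probe of the 7 genes, at 11 weeks (left) and 20 weeks (right). Circles are arrays with the older retina in Cy5, open squares those with it in Cy3, bars their mean, and the grey band the range of named probes from the 5th to the 95th percentile, averaged over the 2 arrays. At 20 weeks, Myc, Atf3 and probe 9597 of Zfp36 lie above the band on both arrays, and probe 1630 of Zfp36 and both Per1 probes lie inside it.

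**Figure D2:**
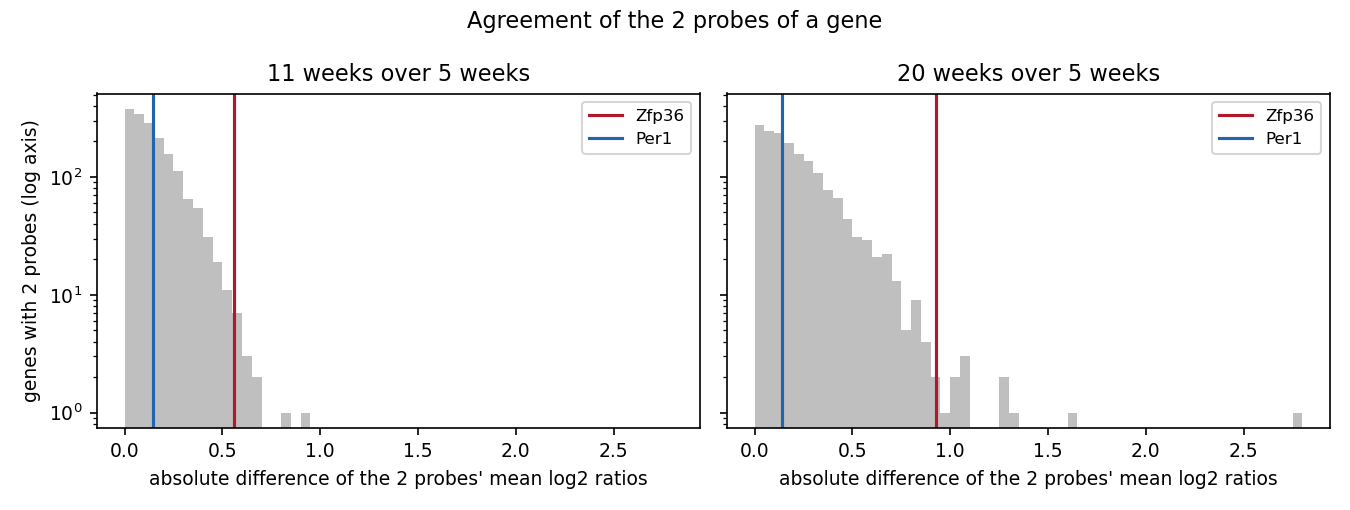
Number of genes with exactly 2 probes (vertical axis, log scale, 1683 genes) by the absolute difference of the probes' mean log2 ratios (horizontal axis), at 11 weeks (left) and 20 weeks (right). The red line is Zfp36, at 0.56 and 0.93, in the far tail, and the blue line is Per1, at 0.15 and 0.14, in the bulk.

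The clock genes went different ways. Per1, the light-responsive repressor, had 2 probes, of which 1 lay near the median gene on all 4 arrays. Probe 7828 was at -0.13 and -0.05 on the 11-week arrays with the older retina in Cy5 and Cy3, and at 0.07 and -0.03 on the 20-week arrays. Probe 1350 was at 0.00 and -0.47 on the 11-week arrays and at 0.16 and -0.40 on the 20-week arrays. Probe 1350 was thus low on the Cy3 array of each age, at the 3.06th and 5.79th percentile of probes at 11 and 20 weeks, and near or above the median on the Cy5 array, a difference that went with the dye and not with the age. Averaged over both probes, Per1 was at -0.16 ± 0.14 at 11 weeks and -0.05 ± 0.23 at 20 weeks (SD, n = 2 each), and the ages overlapped. Its probes differed by 0.15 at 11 weeks and 0.14 at 20 weeks, near the median of genes with 2 probes.

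Per2, the second of the PER repressors, was higher at 20 weeks. It was at -0.13 and -0.06 on the 11-week arrays with the older retina in Cy5 and Cy3, and at 0.68 and 0.30 on the 20-week arrays. Every 11-week array lay below the median gene and every 20-week array above it. Its mean was -0.10 ± 0.05 at 11 weeks and 0.49 ± 0.27 at 20 weeks (SD, n = 2 each), a 1.40-fold higher ratio than at 5 weeks and the rank 246 from the highest of all genes.

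Clock, the transcription factor that drives Per expression with BMAL1, lay below the median gene at 20 weeks. It was at -0.04 and 0.15 on the 11-week arrays with the older retina in Cy5 and Cy3, and at -0.42 and -0.22 on the 20-week arrays. Both 20-week arrays were below both 11-week arrays. The mean was 0.06 ± 0.13 at 11 weeks and -0.32 ± 0.14 at 20 weeks (SD, n = 2 each), a ratio of 0.800 to the 5-week retina. This direction is relative to the median gene: without centring, the 20-week arrays were at 0.12 and -0.21, with a mean of -0.05. The order among genes does not depend on centring, and Clock stood at the 6.15th and 16.4th percentile of genes on the Cy5 and Cy3 arrays. Per1 also changed side at 20 weeks, with a mean of 0.23 without centring.

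Side by side, 4 of 4 stimulus-induced and 1 of 3 clock genes were above the median gene on both 20-week arrays, where 27.1% of all genes were. Zfp36 is counted, at 20 and at 11 weeks, by the average of its probes. By probe 1630 alone its arrays lay on both sides of the median gene at each age. Below it on both 20-week arrays were 0 stimulus-induced genes and 1 clock gene, Clock, against 26.7% of all genes. At 11 weeks, 3 of 4 stimulus-induced genes and 0 clock genes were above the median on both arrays, against 20.5% of all genes, with Atf3 above it by 0.02 at most. Per1 and Per2 were below it on both, against 20.2%. The average over the stimulus-induced genes exceeded that over the clock genes by 0.15 and 0.20 on the 11-week arrays with the older retina in Cy5 and Cy3, and by 0.54 and 0.56 on the 20-week arrays. That excess had a mean of 0.17 ± 0.03 at 11 weeks and 0.55 ± 0.02 at 20 weeks (SD, n = 2 each), and centring cannot alter it because it is taken within an array. With Zfp36 read from probe 1630 alone it was 0.10 and 0.43, and from probe 9597 alone 0.24 and 0.66. Single genes of the groups overlapped at 20 weeks: Per2, with a mean of 0.49, lay above Dusp1, at 0.43, and Zfp36, at 0.39. Both group averages were higher on the 20-week Cy5 than Cy3 array, 0.66 and 0.52 for stimulus-induced and 0.13 and -0.05 for clock genes. The SD of the excess does not include a dye difference common to both groups. Since the rule set these genes against each other with their values known, the excess is a description of the chosen genes.

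The 20-week and 11-week retinas met on no array. Their ratios to the 5-week retina were compared within each dye, which removes a dye effect that is the same on both arrays. Each age had its own slides, so age cannot be told apart from slide. The 20-week retina exceeded the 11-week retina in Myc by 1.27 on the Cy5 arrays and 0.95 on the Cy3 arrays. For Atf3 the differences were 0.64 and 0.54, and for Per2 they were 0.82 and 0.36. Each of these 3 genes thus had both 20-week arrays above both 11-week arrays, as did 13.6% of all genes. Clock was lower at 20 weeks than at 11 by nearly equal amounts in the 2 dyes, -0.38 and -0.37, at the 2.80th and 3.29th percentile of genes. Both 20-week arrays lay below both 11-week arrays for 11.1% of all genes. This order for Clock holds relative to the median gene: without centring the differences were 0.20 on the Cy5 arrays and -0.49 on the Cy3 arrays, and the ages overlapped. Without centring, both 20-week arrays still lay above both 11-week arrays for Myc, Atf3 and Per2. Dusp1 differed by 0.19 and -0.09 and Per1 by 0.18 and 0.05, and their ages overlapped. Zfp36 differed by 0.26 and 0.10 as the average of its probes. By probe 9597 alone the differences were 0.36 and 0.38, with both 20-week arrays above both 11-week arrays, and by probe 1630 alone they were 0.16 and -0.17. The mean differences were 1.11 for Myc, a 2.16-fold higher ratio, 0.59 for Atf3, 0.59 for Per2 and -0.38 for Clock.

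**Figure D3:**
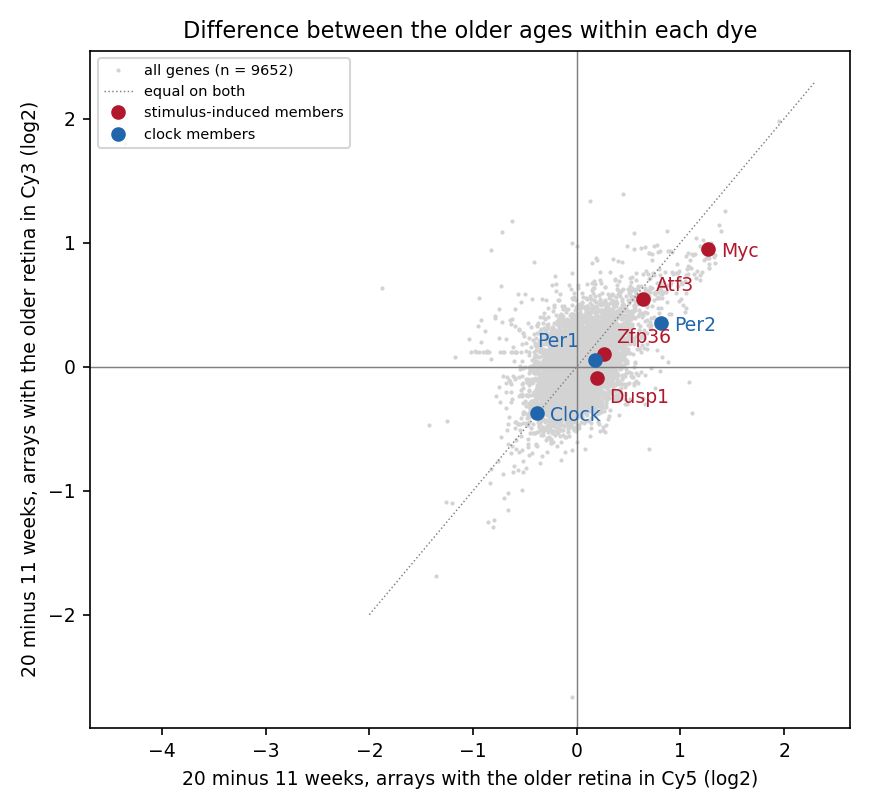
Difference of the 20-week minus the 11-week log2 ratio on the arrays with the older retina in Cy5 (horizontal axis) and in Cy3 (vertical axis) for 9652 genes (grey), with the stimulus-induced genes in red and the clock genes in blue. Points on the dotted line differ equally in both dyes. Myc, Atf3 and Per2 lie in the upper right, Clock in the lower left on the line, and Dusp1, Zfp36 and Per1 near the centre.

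The genes with the most similar profile over the 4 arrays were named by the smallest root mean square difference. For Myc these were Ncf1, at 0.05, Mafg, at 0.07, and Hsf2, at 0.08, and 6 genes in all came within 0.1. Mafg, a small MAF factor, was at -0.03 and -0.41 on the 11-week arrays with the older retina in Cy5 and Cy3 and at 1.24 and 0.46 on the 20-week arrays. Atf3 was nearest to Ltk, at 0.05, and Per2 to Pnldc1, at 0.06, with 9 and 7 genes within 0.1. Dusp1 was nearest to Sfxn4, at 0.05, with 7 within 0.1. Zfp36, as the average of its 2 differing probes, was nearest to Batf, an AP-1 family factor, at 0.03, with 40 genes within 0.1. Batf was at 0.275 and 0.47 on the 20-week arrays with the older retina in Cy5 and Cy3. Neither Zfp36 probe had such values there: probe 9597 was at 0.82 and 0.89 and probe 1630 at -0.20 and 0.05. Clock was nearest to Fbn1, at 0.03, and Per1 to Lipa, at 0.01. A profile like that of Per1 was common, with 201 genes within 0.1, while those of Myc, Atf3, Dusp1 and Per2 had at most 9 such genes. The arrays share the 5-week retina, so these likenesses describe 4 dependent values.

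The wider pathways were read from lists of other genes, for which limma with a gene-wise dye effect was fitted over 9652 genes. A gene "passed" at a Benjamini-Hochberg adjusted p under 0.05 in that model. Where a change is given from 1 array of an age alone, that array was corrected by the dye effect of the other age's pair, and the value has no test. Over all genes, 252 passed as higher and 612 as lower at 11 weeks (2.61% and 6.34%), and 1715 as higher and 1342 as lower at 20 weeks (17.8% and 13.9%). Without centring, 0 and 0 passed at 11 weeks and 132 and 1 at 20 weeks. Without a dye term 0 genes passed at either age, where 367 genes at 11 weeks and 888 at 20 weeks had an unadjusted p under 0.05. In simulated data, 13.1% of the dye-term model's calls at 11 weeks and 7.98% at 20 weeks were unchanged genes. Those data were drawn from the same model, with few changed genes, independent errors and 1 dye effect shared by both ages. The shares therefore do not measure false calls among the real ones. Of 98 measured genes in the 7 lists around the stimulus-induced members, 1 passed as higher and 8 as lower at 11 weeks, with a median of 0.01. At 20 weeks 25 passed as higher and 10 as lower, and the median was 0.05, against 0.01 over all genes. The share passed as higher was thus somewhat above that of all genes, and the median gene of these lists was close to the median of all genes.

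AP-1 and ATF/CREB factors, which include dimer partners of Atf3, had 8 of 18 genes passed as higher at 20 weeks and 2 as lower (median 0.11). These were 44.4% and 11.1%, against 17.8% and 13.9% of all genes at 20 weeks. Mafg was at 0.85 ± 0.55 (SD, n = 2), Jdp2, a repressor that pairs with Jun proteins, at 0.49 ± 0.23, and Batf at 0.37 ± 0.14. Fos, the best-known immediate early gene, was at 0.26 ± 0.18 and Junb at 0.32 ± 0.07. Each of these 5 passed as higher at 20 weeks in limma with a dye term, with adjusted p from 0.000111 for Mafg to 0.016 for Fos, and none of them passed at 11 weeks. Jun, at 0.26 and -0.19 on the 20-week arrays with the older retina in Cy5 and Cy3, did not pass. The 2 that passed as lower at 20 weeks were Jund, at -0.30 ± 0.14, and Atf2, at -0.24 ± 0.14. Atf4, the factor that induces Atf3 in the integrated stress response, was at -0.70 ± 0.09 at 11 weeks, where it passed as lower, and at -0.15 ± 0.09 at 20 weeks, where it did not pass.

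Genes of the integrated stress response, which Atf3 belongs to, had 3 of 14 passed as lower at 11 weeks and 6 of 14 as higher at 20 weeks, with a 20-week median of 0.08. These were 21.4% and 42.9% of the list, against 6.34% and 17.8% of all genes. Those lower at 11 weeks were Ddit3, Cebpg and Ddit4, the last at -0.255 ± 0.10 (SD, n = 2). With centring on all probes the 11-week change of Ddit4 did not pass (adjusted p = 0.0783 in limma). Sesn2, which limits TORC1 signalling, was at 0.93 and 0.76 on the 20-week arrays with the older retina in Cy5 and Cy3, with a mean of 0.85 ± 0.12 (SD, n = 2). Asns, asparagine synthetase, was at 0.67 ± 0.34 at 20 weeks, and Chac1, which degrades glutathione, at 0.39 ± 0.16. The 2 Chac1 probes differed, with 20-week means of 0.615 and 0.1625, and the lower one was at 0.45 and -0.13 on the Cy5 and Cy3 arrays. Ddit3, the factor CHOP, was at -0.31 ± 0.23 at 11 weeks and 0.37 ± 0.06 at 20 weeks, and passed in each direction. Its 11-week arrays with the older retina in Cy5 and Cy3 were at -0.47 and -0.15, and the Cy3 array alone, corrected for dye, gave -0.19. With centring on all probes its 11-week change did not pass (adjusted p = 0.0563 in limma). Cebpg, a dimer partner of ATF4, was at -0.29 ± 0.12 at 11 weeks and 0.34 ± 0.07 at 20 weeks, also passed in each direction. The difference between the ages passed for 4 genes of this list, Sesn2, Asns, Ddit3 and Cebpg, all higher at 20 weeks. Over all genes that difference passed as higher for 3.55% and as lower for 1.18%.

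Early transcription factors of the EGR, NR4A and KLF families had 3 of 17 passed as higher and 3 as lower at 20 weeks, with a median of -0.04 (0 and 0 passed at 11 weeks). At 20 weeks that was 17.6% each way, near the 17.8% and 13.9% of all genes. Egr1, Nr4a1 and Ier2, with 20-week means of -0.13, -0.09 and -0.05, did not pass. Cebpd, a factor of the acute phase response, was at -0.49 and -0.57 on the 20-week arrays with the older retina in Cy5 and Cy3 and passed as lower. Of 20 early effector genes, 5 passed as higher and 1 as lower at 20 weeks, with a median of 0.13, and 1 and 1 at 11 weeks. At 20 weeks that was 25.0% and 5.0%, against 17.8% and 13.9% of all genes. Arc, with a 20-week mean of 0.15, did not pass. Gadd45a, a stress sensor, was at 0.46 ± 0.01 at 20 weeks. Ptgs2, cyclooxygenase 2, was at 0.40 ± 0.40, and its 2 probes were at 0.82 and -0.02.

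Relatives of Dusp1 were spread around the median gene at 20 weeks, and those of Zfp36 lay near or below it. Among 11 other dual-specificity phosphatases, 1 passed as higher and 0 as lower at 20 weeks and 0 passed at 11 weeks, with a 20-week median of 0.04. The share higher at 20 weeks was 9.09%, against 17.8% of all genes. The one that passed was Dusp3, at 0.40 and 0.20 on the 20-week arrays with the older retina in Cy5 and Cy3, a mean of 0.30 ± 0.14. The Cy5 array alone, corrected for dye, gave 0.19. Of 7 genes of the ZFP36 family and of AU-rich element binding, 0 passed as higher and 3 as lower at 20 weeks, with a median of -0.28, and 1 passed as lower at 11 weeks. The share lower at 20 weeks was 42.9%, against 13.9% of all genes. Zfp36l1 was at -0.35 ± 0.30 at 11 weeks and -0.40 ± 0.13 at 20 weeks, and passed as lower at both. Its 11-week arrays with the older retina in Cy5 and Cy3 were at -0.14 and -0.56, and the Cy5 array alone, corrected for dye, gave -0.23. Zfp36l2 was at -0.62 and -0.17 on the 20-week arrays with the older retina in Cy5 and Cy3, a mean of -0.39 ± 0.31. Corrected for dye by the 11-week pair, whose values were -0.46 and 0.44, the order turned: the Cy5 array alone gave -0.17 and the Cy3 array alone -0.62. In the MYC network and its targets, 2 of 11 passed as higher and 1 as lower at 20 weeks, with a median of -0.05, and 1 passed as lower at 11 weeks. At 20 weeks that was 18.2% and 9.09%, against 17.8% and 13.9% of all genes. Mlx, a dimer partner within the network, was at 0.40 ± 0.15 at 20 weeks. Ldha, lactate dehydrogenase A and a MYC target, was at -0.41 and -0.99 on the 20-week arrays with the older retina in Cy5 and Cy3, a mean of -0.70 ± 0.41, and the Cy5 array alone, corrected for dye, gave -0.45.

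**Figure D4:**
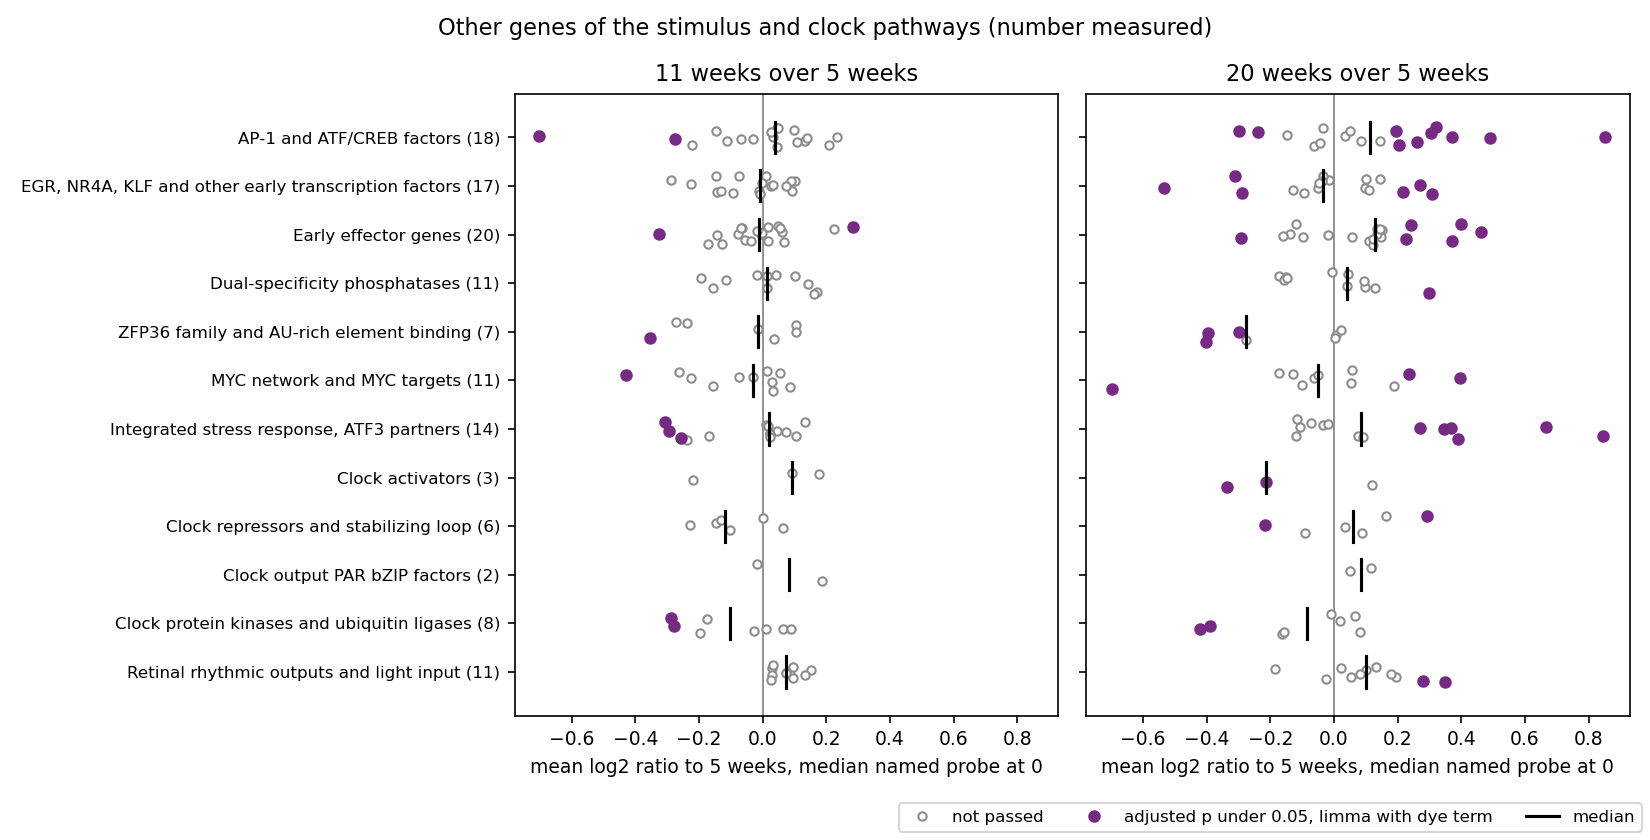
Mean log2 ratio to 5 weeks (horizontal axis) of each measured gene in the 12 pathway lists, without the 7 members, at 11 weeks (left) and 20 weeks (right). Filled points passed limma with a dye term, open points did not, and black bars are list medians. At 20 weeks the AP-1 and stress response lists have 8 and 6 filled points on the higher side, and the ZFP36 family list has 3 on the lower side.

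Other clock genes mostly lay near the median gene. Of 30 measured genes in 5 clock lists, 0 passed as higher and 2 as lower at 11 weeks, and 3 passed as higher and 5 as lower at 20 weeks, with medians of 0.03 and 0.05. At 20 weeks these counts were 10.0% and 16.7% of the 30, on either side of the 17.8% and 13.9% of all genes. Of 3 other clock activators, 0 passed as higher and 2 as lower at 20 weeks. Bmal1, the partner of CLOCK, was at -0.43 and 0.00 on the 20-week arrays with the older retina in Cy5 and Cy3 and at -0.56 and 0.12 on the 11-week arrays, so its low values went with the Cy5 arrays. Its 20-week mean of -0.21 ± 0.30 passed as lower, with an adjusted p of 0.0431 in limma with a dye term, but did not pass with centring on all probes, scaling to equal spread or genes with 1 probe only (adjusted p = 0.0526, 0.0801 and 0.0582 in limma). Corrected for dye by the 11-week pair, the 20-week Cy5 array alone gave -0.09 and the Cy3 array alone -0.34. Rorb, a nuclear receptor of retinal neurons from the family that activates Bmal1, was at 0.18 ± 0.15 at 11 weeks and -0.34 ± 0.02 at 20 weeks. It passed as lower at 20 weeks, as did the difference between the ages, -0.51. The 20-week Cy5 array alone, corrected for dye, gave -0.21.

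Among 6 repressors and stabilizing genes, 1 passed as higher and 1 as lower at 20 weeks and 0 at 11 weeks. At 20 weeks that was 16.7% each way, near the 17.8% and 13.9% of all genes. Timeless, a partner of the clock that also acts at replication forks, was at 0.29 ± 0.23 at 20 weeks and Bhlhe40, an E-box repressor, at -0.22 ± 0.06. Per3, the remaining PER gene, was at -0.25 and 0.38 on the 11-week arrays with the older retina in Cy5 and Cy3 and at 0.06 and 0.12 on the 20-week arrays, and did not pass. Of 8 kinases and ubiquitin ligases that act on clock proteins, 0 passed as higher and 2 as lower at each age. The share lower was 25.0% at each age, against 6.34% of all genes at 11 weeks and 13.9% at 20 weeks. Csnk2b, the regulatory subunit of casein kinase 2, was at -0.29 ± 0.10 at 11 weeks and -0.39 ± 0.02 at 20 weeks, and Btrc, a ligase that marks PER proteins for degradation, at -0.28 ± 0.30 and -0.42 ± 0.13. The 11-week Cy3 array alone, corrected for dye, gave -0.16 for Btrc. With centring on all probes the 11-week changes of Csnk2b and Btrc did not pass (adjusted p = 0.0531 and 0.0666 in limma). Of 2 clock output factors, 0 passed at either age. Dbp, which binds D-boxes, was at 0.19 ± 0.33 at 11 weeks and 0.12 ± 0.13 at 20 weeks, below Per2 at the later age. Of 11 genes of retinal rhythmic output and light input, 2 passed as higher and 0 as lower at 20 weeks and 0 at 11 weeks. The share higher at 20 weeks was 18.2%, near the 17.8% of all genes. Vip, a neuropeptide of amacrine cells, was at 0.88 and -0.18 on the 20-week arrays, a wide spread by dye. The 11-week arrays, at 0.60 and -0.33, were split alike, and the dye term takes up such a split.

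Some of the 8 marker lists differed from all genes in the share passed, while others were mixed. Muscle and leukocyte genes passed mainly at 20 weeks. Over all genes, 2.61% passed as higher and 6.34% as lower at 11 weeks, and 17.8% and 13.9% at 20 weeks. Of 6 skeletal muscle genes, 5 passed as higher and 0 as lower at 20 weeks (median 0.37). Of 10 microglia and leukocyte genes, 4 and 0 passed, with a median of 0.17. Of 7 cornea, conjunctiva and iris genes, 3 and 0 passed, with a median of 0.19. Lens genes passed as lower in 5 of 11 and rod genes in 8 of 14, with medians of -0.18 and -0.27. At 11 weeks, 0 of the muscle and 1 of the microglia genes passed as higher, with medians of -0.02 and 0.00, and 2 of the cornea, conjunctiva and iris genes, with a median of 0.18. Lens genes passed as lower in 7 of 11 at 11 weeks, with a median of -0.30. Most genes on the lens list are crystallins, and whether their RNA came from lens tissue was not tested. Of 6 pigment epithelium and choroid genes, 2 passed as higher and 1 as lower at 20 weeks, and 1 and 1 at 11 weeks. Of 8 vessel genes, 1 and 1 passed at 20 weeks and 0 at 11 weeks. For 2 blood genes, 1 passed as higher at 20 weeks and 0 at 11 weeks. The part of these markers in the values of the 7 genes was not tested.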

How the data were processed

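Each deposited value is a channel ratio on the log2 scale, as its ceiling at log2 of 100000 shows. Channels and dyes come from the labels. The sources used here give no scanner, normalization, centring or direction, and Cy5 over Cy3 was assumed from the order of ages in the titles. Ceiling values were treated as missing. Of 22575 probes, 12750 had 1 gene in the platform's gene table, 5 several and 9820 none. Named probes were kept, each array was centred on their median, ratios were turned to the older over the 5-week retina, and probes of a gene were averaged.

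In R 4.3.3, limma 3.58.1 (lmFit, eBayes) estimated an 11-week change, a 20-week change and a gene-wise dye effect from the 4 arrays, with 1 residual degree of freedom, for 9652 genes. Tests were two-sided, with Benjamini-Hochberg adjustment over all genes. A model without the dye effect had 2. In simulated data the dye-term model recovered 46 of 67 genes changed 1.25-fold at 11 weeks and 40 of 67 at 20 weeks, and all 67 changed 1.5-fold in each. The model without the dye effect recovered 0. Those data were drawn from the dye-term model itself, so the counts do not compare the models. Which model suits the real arrays was not tested.

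The members, the 12 pathway lists, the 8 marker lists and the choice of the dye-term model as the one reported were made with earlier results of these data known. The members had no test. The rule for naming took, per list and age, at most 10 genes that passed, 46 in all. Those given as examples were picked from these with their values known, and Per3 and Dbp were added for their role. Jun, Egr1, Nr4a1, Ier2 and Arc were added as early genes that did not pass. For each member the 3 nearest profiles were determined. The number of arrays limits the precision.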

Additional observations from a re-analysis of the deposited data

Results flagged for a closer look

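Per2 was below the median gene on both 11-week arrays and above it on both 20-week arrays. The 11-week values, -0.13 and -0.06, were near the median gene, and without centring they were -0.18 and 0.07. The 20-week mean exceeded the 11-week mean by 0.59, and this difference was not tested. The 11-week Cy3 array alone, corrected by the dye effect of the 20-week pair, gave 0.13, above the median gene.

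Among the pathway genes that passed at either age, the difference of the 20-week minus the 11-week change passed for 12 in limma with a dye term. It was 1.07 for Mafg, 0.82 for Sesn2, 0.67 for Ddit3, 0.64 for Jdp2, 0.64 for Cebpg and 0.56 for Asns. Atf4 differed by 0.55, Gadd45a by 0.45, Junb by 0.43 and Timeless by 0.39. Lower at 20 weeks than at 11 were Cebpd, by -0.53, and Rorb, by -0.51.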

How the results depend on the processing

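The number of genes passed was 864 at 11 weeks, 3057 at 20 weeks and 457 between 20 and 11 weeks. Without a dye term 0 passed in each comparison, with an unadjusted p under 0.05 for 367, 888 and 270 genes. Without centring the counts were 0, 133 and 1, with an unadjusted p under 0.05 for 37 genes at 11 weeks. Centring on all probes gave 451 at 11 weeks and 274 between the older ages, and genes with 1 probe, which are fewer, gave 534 and 297. For these counts, leaving out each array in turn needs the model without a dye term, and gave 0 to 0 at 11 weeks, 0 to 5 at 20 weeks and 0 to 0 between the ages, with an unadjusted p under 0.05 for 133 to 748 genes. The excess of stimulus-induced over clock genes moved with the Zfp36 probe, an alternative chosen after seeing the data, to 0.10 and 0.24 at 11 weeks and 0.43 and 0.66 at 20 weeks. It stayed within 0.16 to 0.19 and 0.54 to 0.56 when an array was left out. For this excess and for single genes, leaving out an array kept the dye term, so that the other array of its age was corrected by the dye effect of the other age, with no test. Of 14 member values, 7 moved by more than their SD without centring and 1, Per1 at 20 weeks, changed sign. Under scaling to equal spread, centring on all probes and the median of probes, 0 did. The values so corrected had the opposite sign for Atf3 at 11 weeks (-0.03), Per2 at 11 weeks (0.13) and Per1 at 20 weeks (0.015), whereas both arrays of Atf3 and of Per2 at 11 weeks had the sign of their mean. Of 54 list gene results, all 54 lost their call without a dye term and 51 without centring, where Mafg, Sesn2 and Asns kept theirs and Atf2 (0.0375), Bmal1 (0.0615) and Bhlhe40 (0.0585) also reversed at 20 weeks. Centring on all probes ended 11 of the 54 calls, scaling to equal spread 4 and genes with 1 probe 5 of 43. Leaving out 1 array, with the dye term, moved 15 of 46 list genes by over 1.5 times. The causes were not tested. Arrays were matched across ages by dye orientation alone, through the dye term. A block by replicate number could not be fitted because the labels give no replicate numbers.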
